A study of Saccharomyces cerevisiae with 20 samples.

Results

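The genes described here are the 10 of *Saccharomyces cerevisiae* that make the branched-chain amino acids isoleucine, valine and leucine: ILV1, ILV2, ILV3, ILV5, ILV6, LEU1, LEU4, LEU9, BAT1 and BAT2. They were chosen by name, and all 10 are among the 5778 genes listed in the 9 expression tables of the series. LEU2, the remaining leucine gene, is deleted in the strain background and was left out.

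The cells were the haploid laboratory strain BY4741, with HIS3 placed beside either the cdc33-ts4-2 allele or wild-type CDC33. CDC33 encodes eIF4E, the factor that binds the mRNA cap, and cdc33-ts4-2 is a temperature-sensitive allele of it. Both strains were grown in YPD, a rich medium that supplies amino acids, at 25°C, and were then kept for 1 h at 37°C or at 25°C. The 4 groups were therefore cdc33-ts4-2 at 37°C, cdc33-ts4-2 at 25°C, CDC33 at 37°C and CDC33 at 25°C, with 2 ribosome profiling and 3 RNA-seq libraries in each, 20 in all. Because CDC33 cells were also moved to 37°C, the comparison of both changes separates the allele from the shift. Every group carries the BY4741 lesions in HIS3, LEU2, MET15 and URA3, so no culture had a complete leucine pathway.

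In yeast, isoleucine synthesis begins when threonine deaminase, Ilv1, removes the amino group of threonine. Isoleucine and valine then share the enzymes that follow: acetolactate synthase, made of catalytic Ilv2 and regulatory Ilv6, reductoisomerase Ilv5 and dihydroxyacid dehydratase Ilv3. Leucine branches off from the valine precursor through the isopropylmalate synthases Leu4 and Leu9 and the isomerase Leu1. The aminotransferases Bat1, in mitochondria, and Bat2, in the cytosol, add the last amino group. Many of these genes are known targets of Gcn4, the activator of amino acid synthesis genes, and several of Leu3, a regulator that responds to the leucine precursor isopropylmalate.

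The sequence around each start codon is shown because reads before and after that codon are what the measurements below compare. Each line was read from the R64 reference genome, 5′ to 3′, with the ATG and the base at position -3 in capitals.
ILV1: acaaagttaGtgATGtca
ILV2: atcaattttCaaATGatc
ILV3: aaaaaagtaGagATGggc
ILV5: aaaaaataaAacATGttg
ILV6: ccagtctttCtaATGctg
LEU1: ctgttttaaAtcATGgtt
LEU4: caaggaacaAtcATGgtt
LEU9: agccgcgtaGccATGgta
BAT1: gcatactaaAacATGttg
BAT2: tttaagaacGatATGacc
ILV5, LEU1, LEU4 and BAT1, 4 of the 10, have A at position -3, the base most often found there in yeast, against 60.88% of 6007 genes. An ATG within 120 bases before the start codon is present in ILV1, ILV3, ILV6, LEU9 and BAT1, 5 of 10, against 61.73% of genes. The deposited feature table lists no upstream open reading frame for any of the 7 members it holds, while the reference has an ATG 117 bases before the ILV1 start codon, inside the listed leader of 145 nt. That reading frame ends after 31 codons, before the ILV1 start. In ILV2 an ATG lies 263 bases before the start codon, near the beginning of a listed leader of 270 nt. In ILV6 an ATG lies 67 bases before the start codon, at the first base of a listed leader of 67 nt, and its reading frame ends after 11 codons, before the start. The leaders listed for the other 4 members are 64 nt for ILV3, 101 nt for LEU9, 103 nt for LEU1 and 187 nt for LEU4.

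Matches to the Gcn4 motif TGACTC, searched on both strands in the 500 bases before the start codon, are shown for 4 members, with the motif or its reverse complement in capitals.
LEU9: tcgtagtgaaTGACTCatatttttcc
LEU4: tacgtgtaagTGACTCagttctttca
ILV1: caaagaaaaaGAGTCAtctcaaacat
LEU1: ttactctagaTGACTCagtttagtct
Such a match is present in 8 of the 10 genes, all but ILV2 and BAT2, against 12.65% of 6006 genes. ILV5 has 3 matches. The LEU4 match lies 95 bases before the start codon (printed stretch chrXIV:426840-426865, minus strand) and so inside the listed leader of 187 nt. The ILV1 match lies 127 bases before it (printed stretch chrV:328334-328359, plus strand), also inside the listed leader, while those of LEU9 and LEU1 lie 251 and 295 bases away. The Leu3 motif (CCGG, any 2 bases, CCGG), searched on both strands in the same window, is found in 4 members.
BAT1: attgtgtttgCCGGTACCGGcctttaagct
ILV5: gcggtctcctCCGGTACCGGttctgccacc
ILV2: ccggagcctgCCGGTACCGGcttggcttca
LEU1: aacgaaaattCCGGGACCGGcgaaatttgc
Only 16 of 6006 genes (0.2664%) hold it, these 4 included. ILV5, LEU1 and BAT1 are 3 of the 5 genes with matches to both motifs, which do not overlap in them. A match describes these letters only.

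The members are abundant mRNAs in these cultures. The authors' mean normalized count, divided here by coding length, put all 10 above the median gene in both assays. This mean pools all strains and temperatures of an assay, so it has no error and says nothing of a condition. By RNA-seq the means per kb ran from 834 for LEU1 to 8529 for ILV6, between the 79.1st and the 95.7th percentile of 5336 genes. By ribosome profiling they ran from 555 for LEU9 to 12143 for ILV5, between the 70.1st and the 96.6th percentile of 5294 genes. ILV5 was the highest member by ribosome profiling and ILV6 by RNA-seq.

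The order of the members differed between the assays. ILV6, the regulatory subunit, stood at the 91.0th percentile by ribosome profiling and the 95.7th by RNA-seq, and its partner ILV2 stood at the 90.1st and the 87.5th. Of the isopropylmalate synthases, LEU4 stood at the 90.2nd percentile by ribosome profiling and the 95.1st by RNA-seq, and LEU9 at the 70.1st and the 82.8th. ILV1 stood at the 84.3rd by ribosome profiling and the 93.0th by RNA-seq, while LEU1 stood higher by ribosome profiling, at the 87.5th against the 79.1st. BAT1 and BAT2 stood within 1 percentile of each other by ribosome profiling, at the 91.3rd and the 91.6th. The proteins of LEU4 and LEU9 are 82.92% identical and those of BAT1 and BAT2 77.13%. Of windows of 30 bases, 1.912% of those in LEU4 and 1.96% of those in LEU9 occur more than once in the yeast genome, and none of those in BAT1 or BAT2 do, so the levels of the LEU4 and LEU9 pair are the less certain.

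**Figure D1:**
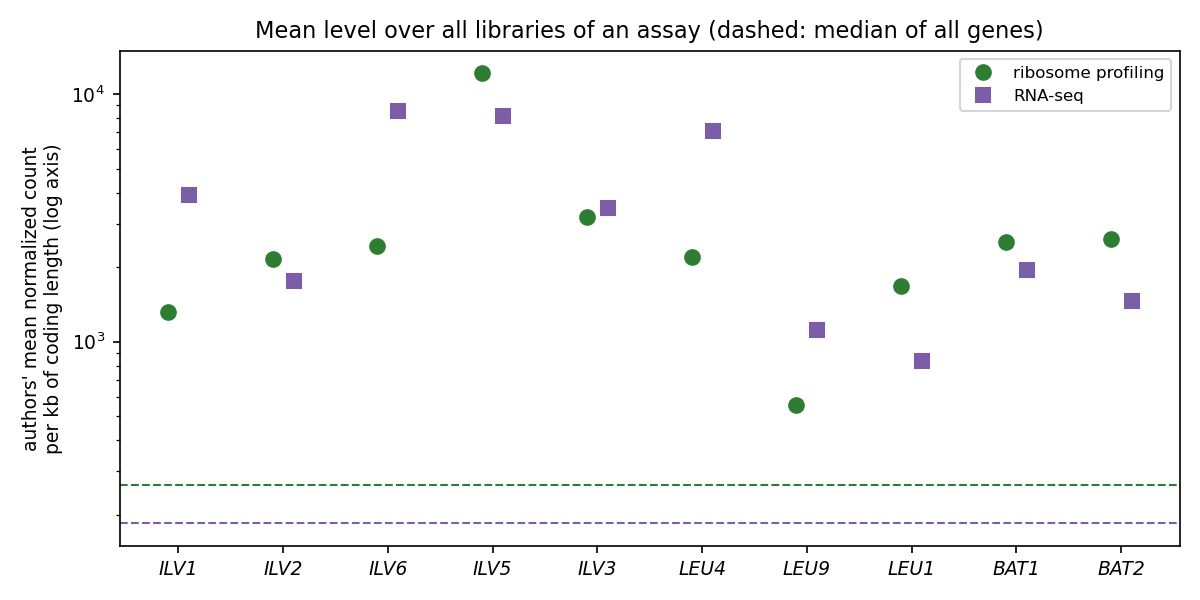
Authors' mean normalized count per kb of coding length for the 10 genes, on a log axis, by ribosome profiling (circles) and RNA-seq (squares). Dashed lines are the medians of all genes, 264 by ribosome profiling and 185 by RNA-seq, and every member lies above them.

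How reads were spread over each mRNA could be followed library by library. The deposited values are the density of reads in the 5′ UTR, or in the 3′ UTR, divided by the density in the coding sequence of the same gene and library. A value of 1 means equal reads per base in both. A higher ratio can come from more reads in the UTR or from fewer in the coding sequence, and these cannot be told apart. Of 3933 genes listed for the 5′ UTR, 1218 have a value in all 20 libraries, and of 3932 listed for the 3′ UTR 1208 do. These complete genes alone were used, and 7 members are among them in both regions: ILV1, ILV2, ILV5, LEU1, LEU4, LEU9 and BAT1. ILV3, ILV6 and BAT2 have no line in these tables, so their UTR densities were not analysed here. Changes are differences of log2(density + 0.01), which understates those of low densities, tested with limma over all complete genes, and a call means a Benjamini-Hochberg adjusted p of 0.05 or less. No read counts accompany the densities, so the depth behind each is unknown. Ribosome profiling reads are called footprints here. The study reports that they lacked the usual length distribution and reading frame enrichment, possibly because RNase digestion was incomplete. It took them as ribosome-protected from their coverage of coding sequences and 5′ UTRs. Cycloheximide, which the study says can introduce artifacts, was added before harvest, and its effect on UTR densities was not tested here. The study calls the replicates biological, while the labels do not say whether they came from separate cultures, so the p-values may cover the spread between these libraries only.

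In ribosome profiling, the 5′ UTR density of all 7 measured members was higher in both 37°C libraries than in both 25°C libraries, in each strain. On the log2(density + 0.01) scale, LEU9 rose 5.03-fold in cdc33-ts4-2 cells and LEU1 7.74-fold in CDC33 cells. LEU1 had the largest change of the 7 in CDC33 cells at each pseudocount tried, whereas in cdc33-ts4-2 cells the order depended on it: with 0.001 BAT1 (2.87) passed LEU9 (2.36) and LEU1 (2.30), and with 0.1 LEU9 (2.05) and LEU1 (1.42) lay above BAT1 (0.49). The same separation by temperature was present in 62.4% of all 1218 genes in the cdc33-ts4-2 strain and 55.7% in the CDC33 strain.

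LEU9, the minor isopropylmalate synthase, had 5′ UTR densities of 1.67 and 1.48 in cdc33-ts4-2 cultures at 37°C, against 0.318 and 0.292 at 25°C. In CDC33 cells it had 0.551 and 0.486 at 37°C, against 0.187 and 0.176 at 25°C. LEU9 was the only one of the 7 members whose 5′ UTR held more footprints per base than its coding sequence, and it did so only in the 2 cdc33-ts4-2 libraries at 37°C. Its mean density in that group stood at the 91.1st percentile of all 1218 genes. Its log2 change was 2.33 (SE 0.16, limma adjusted p = 0.011) in cdc33-ts4-2 cells and 1.46 (SE 0.16, adjusted p = 0.020) in CDC33 cells.

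LEU4, the major isopropylmalate synthase, had densities of 0.783 and 0.769 in cdc33-ts4-2 cultures at 37°C, against 0.285 and 0.317 at 25°C. In CDC33 cells it had 0.221 and 0.429 at 37°C, against 0.0965 and 0.137 at 25°C. The CDC33 libraries at 37°C lay nearly 2-fold apart, and neither change passed: the log2 differences were 1.34 (SE 0.35, limma adjusted p = 0.054) in cdc33-ts4-2 cells and 1.35 (SE 0.35, adjusted p = 0.057) in CDC33 cells. With a pseudocount of 0.1 the difference in cdc33-ts4-2 cells was 1.13 and passed (adjusted p = 0.032).

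LEU1, the isopropylmalate isomerase, had densities of 0.337 and 0.401 in cdc33-ts4-2 cultures at 37°C, against 0.0574 and 0.0945 at 25°C. In CDC33 cells it had 0.311 and 0.361 at 37°C, against 0.0303 and 0.0393 at 25°C. The 37°C libraries of both strains thus overlapped, while the 25°C libraries of cdc33-ts4-2 lay above those of CDC33. The log2 change was 2.17 (SE 0.27, limma adjusted p = 0.013) in cdc33-ts4-2 cells and 2.95 (SE 0.27, adjusted p = 0.015) in CDC33 cells, where it stood at the 98.2nd percentile of all genes.

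Among the shared enzymes, ILV2, the catalytic subunit of acetolactate synthase, had densities of 0.518 and 0.592 in cdc33-ts4-2 cultures at 37°C, against 0.241 and 0.255 at 25°C. In CDC33 cells it had 0.430 and 0.441 at 37°C, against 0.163 and 0.236 at 25°C. Its log2 change was 1.13 (SE 0.22, limma adjusted p = 0.032) in cdc33-ts4-2 cells and 1.11 (SE 0.22, adjusted p = 0.036) in CDC33 cells, a difference of 0.02 with a 95% interval of -0.77 to 0.80.

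ILV5, the reductoisomerase, had few footprints in its 5′ UTR for its high coding level. Its densities were 0.0545 and 0.0662 in cdc33-ts4-2 cultures at 37°C, against 0.0144 and 0.0140 at 25°C, and 0.0270 and 0.0598 in CDC33 cultures at 37°C, against 0.00660 and 0.00839 at 25°C. The log2 change was 1.54 in both strains (SE 0.33; limma adjusted p = 0.035 in cdc33-ts4-2 cells and 0.040 in CDC33 cells). The size of this change depended on the pseudocount. With 0.001 it was 2.01 in cdc33-ts4-2 cells and 2.29 in CDC33 cells, and with 0.1 it was 0.49 in cdc33-ts4-2 cells and 0.41 in CDC33 cells, where the call was lost (adjusted p = 0.088). The call in CDC33 cells was also lost with the replicate number as a block (adjusted p = 0.051).

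ILV1, at the head of the isoleucine branch, had densities of 0.0751 and 0.0780 in cdc33-ts4-2 cultures at 37°C, against 0.0184 and 0.0367 at 25°C. In CDC33 cells it had 0.0371 and 0.0685 at 37°C, against 0.0240 and 0.0267 at 25°C. It was the member with the smallest change in CDC33 cells, and neither passed: the log2 differences were 1.25 (SE 0.35, limma adjusted p = 0.061) in cdc33-ts4-2 cells and 0.78 (SE 0.35, adjusted p = 0.17) in CDC33 cells. With a pseudocount of 0.1 the difference in cdc33-ts4-2 cells was 0.47 and passed (adjusted p = 0.048).

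BAT1, the mitochondrial aminotransferase, had the lowest mean 5′ UTR density of the 7 at 25°C in each strain. It had 0.0402 and 0.0590 in cdc33-ts4-2 cultures at 37°C, against 0.00753 and 0.00439 at 25°C, and 0.0319 and 0.0450 in CDC33 cultures at 37°C, against 0.00327 and 0.00946 at 25°C. The log2 change was 1.89 (SE 0.30, limma adjusted p = 0.023) in cdc33-ts4-2 cells and 1.58 (SE 0.30, adjusted p = 0.036) in CDC33 cells. Its size, too, depended on the pseudocount, at 2.87 in cdc33-ts4-2 cells and 2.54 in CDC33 cells with 0.001, and 0.49 in cdc33-ts4-2 cells and 0.38 in CDC33 cells with 0.1, where the CDC33 call was lost (adjusted p = 0.059).

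ILV2, ILV5, LEU1, LEU9 and BAT1, 5 of the 7, therefore rose in each strain, and none fell. Of all 1218 genes, 18.6% were called in cdc33-ts4-2 cells and 15.4% in CDC33 cells. The median log2 change of the 7 was 1.54 in cdc33-ts4-2 cells, beside 0.80 over all genes, and 1.46 in CDC33 cells, beside 0.73 over all genes. The calls changed when single libraries were left out, and the estimates moved but kept their sign. In cdc33-ts4-2 cells the 5 calls became 0 without either cdc33-ts4-2 library at 25°C and 2 without either at 37°C. In CDC33 cells they became 0 without either CDC33 library at 37°C, 2 without replicate 1 and 4 without replicate 2 at 25°C, 1 without either cdc33-ts4-2 library at 25°C, and 2 without either at 37°C. The cdc33-ts4-2 libraries enter this comparison through the shared spread alone. In these fits the estimates of the 5 members stayed positive, from 1.03 for ILV2 to 2.49 for LEU1 in cdc33-ts4-2 cells and from 0.86 for ILV2 to 3.10 for LEU1 in CDC33 cells, and that of LEU9 in cdc33-ts4-2 cells stayed between 2.25 and 2.41. The calls over all genes moved in the same fits, mostly down. In cdc33-ts4-2 cells the 226 became 2 and 0 without replicate 1 and 2 at 25°C and 63 and 93 without replicate 1 and 2 at 37°C, and 358 without either CDC33 library at 25°C. In CDC33 cells the 188 became 8 and 4 without replicate 1 and 2 at 37°C, 36 and 292 without replicate 1 and 2 at 25°C, 7 without either cdc33-ts4-2 library at 25°C, and 108 without either at 37°C.

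The study describes cultures divided between 25°C and 37°C, but neither it nor the labels say that a replicate number marks the same culture. If it does, the number is a block within each strain. In such a fit, added after the data had been seen, the estimates are the same but only 2 residual degrees of freedom are left, and 0 of 7 members were called in either strain, as were 0 of all 1218 genes. The limma adjusted p of the 7 then ran from 0.050 to 0.082 in cdc33-ts4-2 cells, where 7 of 7 had an unadjusted p under 0.05, and from 0.062 to 0.18 in CDC33 cells, where 6 of 7 did.

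**Figure D2:**
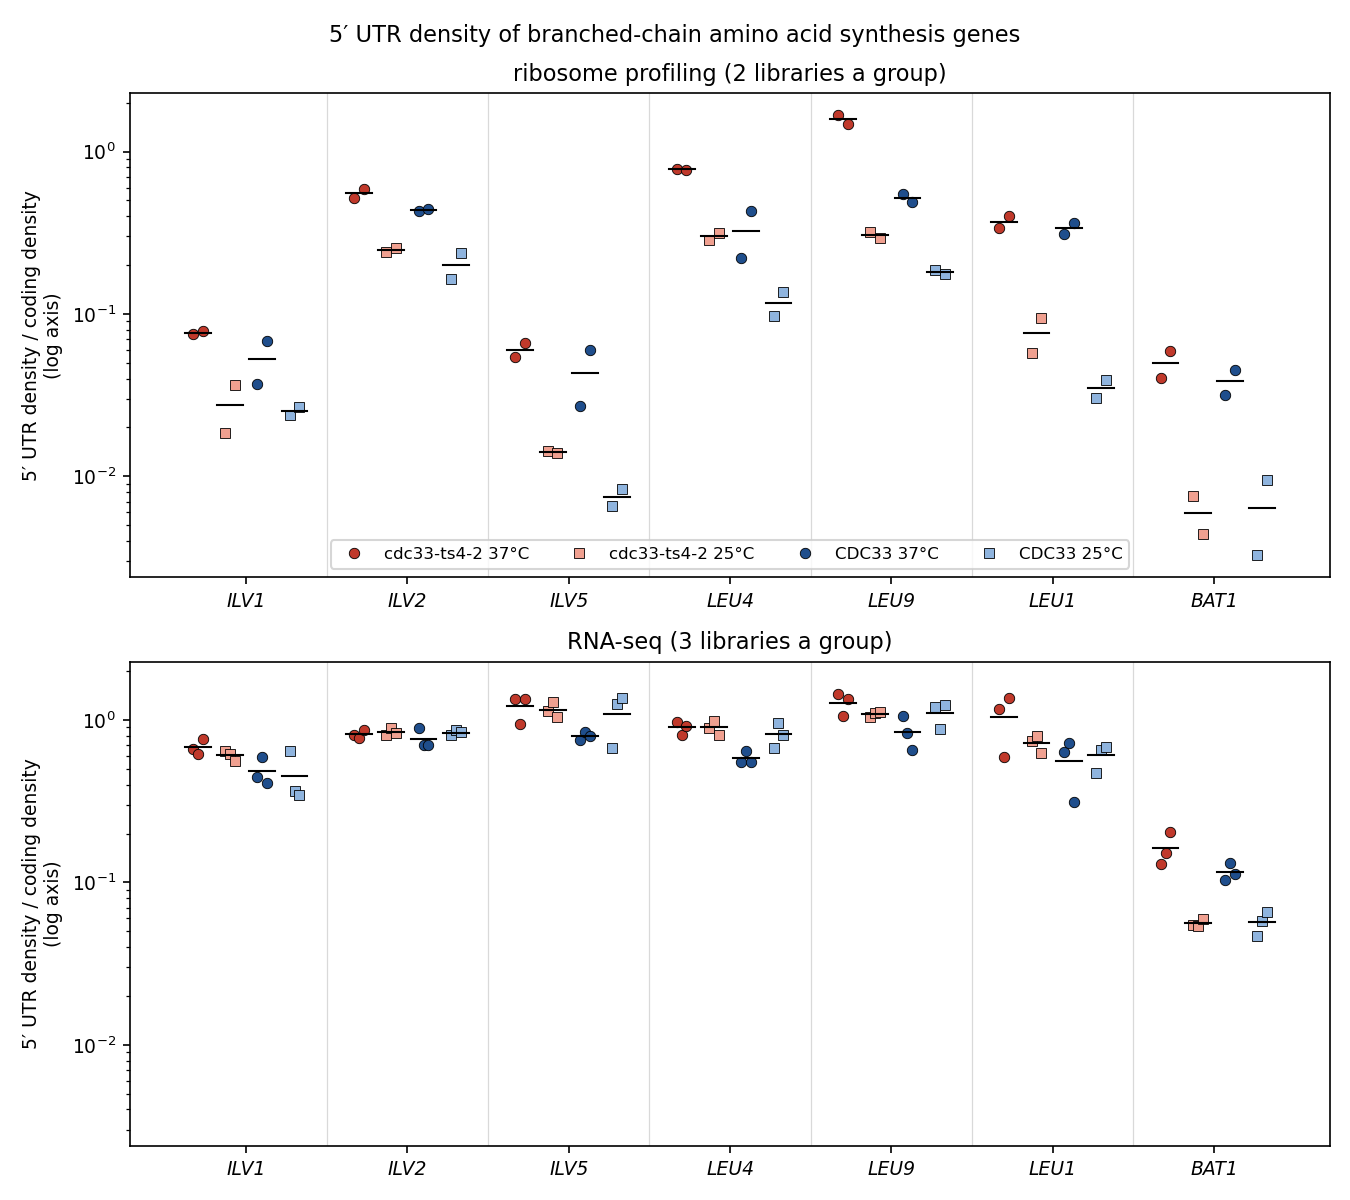
5′ UTR density divided by coding density (log axis) in each library, with group means as bars, for 7 genes in ribosome profiling (top) and RNA-seq (bottom). In ribosome profiling both 37°C libraries (circles) lie above both 25°C libraries (squares) of the same strain for every gene, while in RNA-seq only BAT1 separates by temperature in both strains.

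The change itself did not pass a test of difference between the strains for any of the 7 genes (0.164% of all genes did). At an unadjusted p under 0.05 only LEU9 differed, with a change 0.87 larger on the log2 scale in cdc33-ts4-2 cells (SE 0.23, 95% interval 0.28 to 1.46, limma adjusted p = 0.36). LEU1 differed by -0.78 (interval -1.76 to 0.20, adjusted p = 0.50). The estimates for the other 5 ran from -0.01 for LEU4 to 0.47 for ILV1, beside a median of 0.05 over all genes. For ILV5 the interval, -1.18 to 1.17, allows a difference of over 2-fold either way, so these libraries do not show that the strains changed alike.

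Footprint densities of the strains were also set side by side at each temperature, without a test. At 25°C both cdc33-ts4-2 libraries were above both CDC33 libraries for ILV2, ILV5, LEU1, LEU4 and LEU9, 5 of 7, against 47.7% of all genes. At 37°C this held for 4 of 7, ILV1, ILV2, LEU4 and LEU9, against 54.4% of all genes. Such separations were common over all genes, so both counts are descriptions only, and no member lay below in every library.

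**Figure D3:**
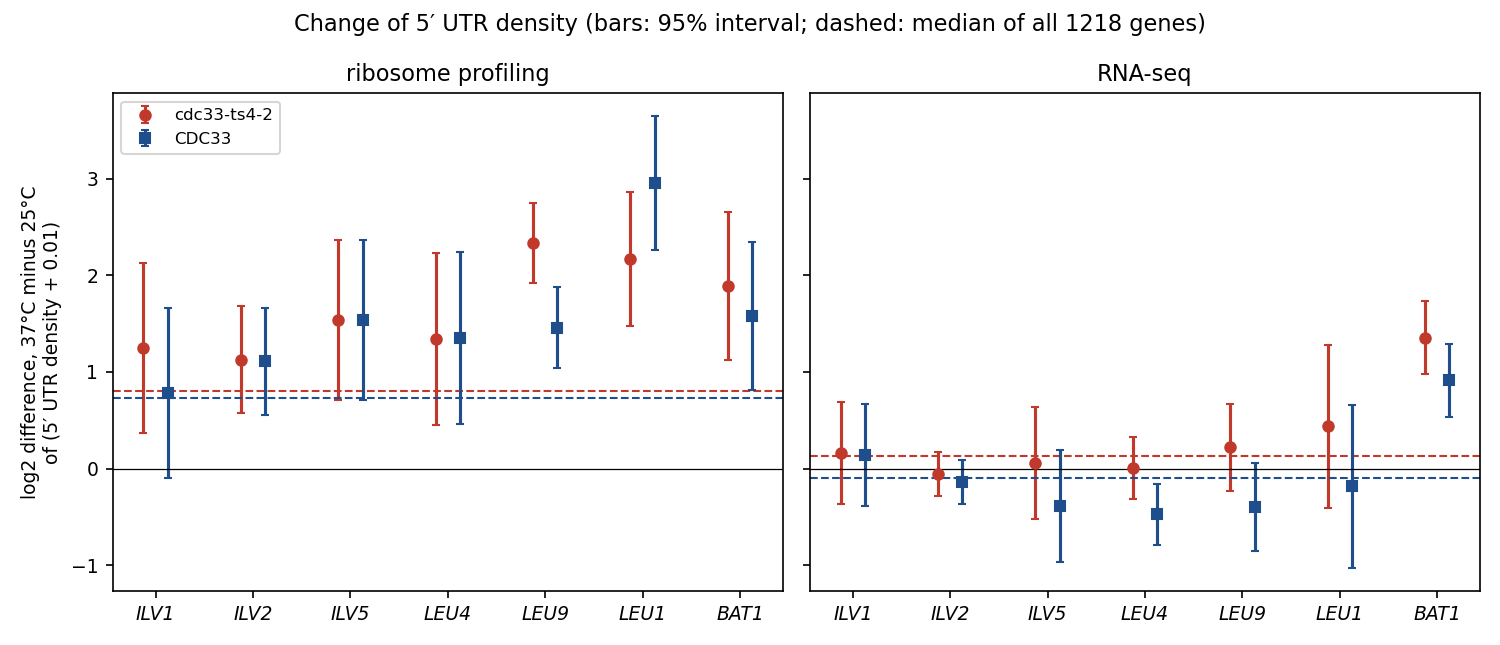
Log2 difference of 5′ UTR density, 37°C minus 25°C, with 95% intervals, for cdc33-ts4-2 (red circles) and CDC33 (blue squares), by ribosome profiling (left) and RNA-seq (right). The ribosome profiling estimates all lie between 0.78 and 2.95, and those of RNA-seq between -0.47 and 1.36, with dashed lines at the median of all 1218 genes.

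RNA-seq of the same groups set the footprints beside the mRNA. BAT1 alone among the 7 rose in it. Its 5′ UTR density was 0.131, 0.151 and 0.206 in cdc33-ts4-2 cultures at 37°C, against 0.0550, 0.0541 and 0.0599 at 25°C, and 0.104, 0.131 and 0.112 in CDC33 cultures at 37°C, against 0.0470, 0.0582 and 0.0657 at 25°C. Every 37°C library lay above every 25°C library in both strains, as in 17.5% of all 1218 genes in cdc33-ts4-2 cells and 4.52% in CDC33 cells. The log2 change was 1.36 (SE 0.17, limma adjusted p = 0.0019) in cdc33-ts4-2 cells, and 0.91 (SE 0.17, adjusted p = 0.073) in CDC33 cells, where it did not pass. The difference between strains was 0.44 (adjusted p = 0.47).

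In cdc33-ts4-2 cells the call of BAT1 made 1 of 7, against 4.19% of all genes. In CDC33 cells 0 of 7 passed, against 0.328%, with 2 at an unadjusted p under 0.05: BAT1, and LEU4 at -0.47 (limma adjusted p = 0.21). Without replicate 3 of cdc33-ts4-2 at 37°C the count in CDC33 cells was 1. The change between strains passed in 0 of 7, against 1.07%, with 1 at an unadjusted p under 0.05, LEU4 at 0.48 (adjusted p = 0.32). Apart from BAT1, the RNA-seq changes ran from -0.05 for ILV2 to 0.44 for LEU1 in cdc33-ts4-2 cells and from -0.47 for LEU4 to 0.14 for ILV1 in CDC33 cells. LEU4 lay lower in every 37°C library than in every 25°C library of CDC33 cells, as did 114 of 1218 genes.

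The RNA-seq 5′ UTR densities differed from member to member. They depend on the UTR boundaries that the authors used, and whether these fit the mRNA ends in these cells was not tested. No leader length is listed for BAT1 or ILV5. BAT1 had at most 0.206 reads per base of 5′ UTR for each in the coding sequence, while the other 6 ran from 0.314 in 1 LEU1 library to 1.44 in 1 LEU9 library. LEU1 was the most variable within a group: at 37°C it had 1.16, 0.588 and 1.36 in cdc33-ts4-2 cells and 0.638, 0.720 and 0.314 in CDC33 cells. ILV2 was the steadiest, between 0.698 and 0.899 in all 12 libraries.

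A fit of both assays together, added after the data had been seen, asked whether the change by ribosome profiling exceeded that by RNA-seq. It did in ILV2, ILV5, LEU1, LEU4 and LEU9, 5 of 7, in cdc33-ts4-2 cells (19.9% of all genes called) and in the same 5 in CDC33 cells (27.4%). LEU9 had the largest excess in cdc33-ts4-2 cells, 2.11 on the log2 scale (SE 0.29, limma adjusted p = 0.00064). LEU1 had the largest in CDC33 cells, 3.14 (SE 0.53, adjusted p = 0.0021). ILV1 did not pass (1.09, adjusted p = 0.074, and 0.65, adjusted p = 0.28). BAT1, whose density also rose by RNA-seq in cdc33-ts4-2 cells, had an excess of 0.53 (adjusted p = 0.26) in those cells and 0.67 (adjusted p = 0.15) in CDC33 cells. Its footprint densities at 25°C all lay below the pseudocount of 0.01, and its RNA-seq densities above it, so these values understate its excess. No other pseudocount or setting was tried for this fit, so whether BAT1 would pass with another was not tested.

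Averaged over the 4 groups, footprints were scarcer in the 5′ UTR of each of the 7 members than RNA-seq reads were. All 7 were lower by ribosome profiling, and 86.7% of all genes were called in this comparison. The log2 difference ran from -4.90 (SE 0.15) for ILV5 to -1.18 (SE 0.10) for LEU9. This average did not hold in every group: LEU9 was reversed in cdc33-ts4-2 cultures at 37°C. Its densities there were 1.67 and 1.48 for footprints, against 1.44, 1.05 and 1.35 for RNA-seq reads.

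Among the other genes of the pathway fixed for comparison, only BAP3, a permease that takes up branched-chain amino acids, was complete. LEU3, OAC1, LEU5 and BAP2 were incomplete or not listed and were not tested. By ribosome profiling BAP3 had 5′ UTR densities of 3.47 and 3.12 in cdc33-ts4-2 cultures at 37°C, against 1.31 and 1.18 at 25°C, and 1.50 and 2.25 in CDC33 cultures at 37°C, against 0.771 and 0.706 at 25°C. It rose by 1.40 (SE 0.24, limma adjusted p = 0.026) in cdc33-ts4-2 cells and 1.30 (SE 0.24, adjusted p = 0.035) in CDC33 cells. In the mean over the 4 groups, and unlike those of the 7 enzymes, its 5′ UTR density by ribosome profiling exceeded that by RNA-seq, by 0.54 (SE 0.10, limma adjusted p = 9.5e-05). In CDC33 cultures at 25°C, however, BAP3 had a mean density of 0.739 by ribosome profiling and 1.08 by RNA-seq. Of other amino acid pathways, 0 of 3 complete arginine genes, 0 of 1 histidine gene and 1 of 5 lysine genes were called by ribosome profiling in cdc33-ts4-2 cells, and 0 of each in CDC33 cells. At an unadjusted p under 0.05 there were 1, 0 and 3 in cdc33-ts4-2 cells and 0, 0 and 1 in CDC33 cells. The median log2 changes in cdc33-ts4-2 cells were 1.25 for arginine, -0.44 for histidine and 1.70 for lysine, beside 1.54 for the 7 members. In CDC33 cells they were -0.60, 0.76 and 0.60, beside 1.46. No difference between these lists and the 7 members was tested.

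Past the stop codon, footprints were few in all 7 members, and 2 of them, ILV1 and BAT1, rose in cdc33-ts4-2 cultures at 37°C. ILV1 had 3′ UTR densities of 0.0849 and 0.0756 in cdc33-ts4-2 cultures at 37°C, against 0.00312 and 0.00283 at 25°C. In CDC33 cells it was listed at 0 and at 0.0179 at 37°C, against 0.00291 and 0.00453 at 25°C. Both cdc33-ts4-2 libraries at 37°C thus stood apart from the other 6. The log2 change was 2.80 (SE 0.49, limma adjusted p = 0.011) in cdc33-ts4-2 cells. It was 4.35 with a pseudocount of 0.001, where it did not pass (adjusted p = 0.074), and 0.81 with 0.1. The adjusted p was 0.057 without replicate 1 and 0.062 without replicate 2 of cdc33-ts4-2 at 25°C. In CDC33 cells it was 0.29 (SE 0.49, adjusted p = 1). The change differed between strains by 2.51 (SE 0.69, adjusted p = 0.067), which did not pass.

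BAT1 had 3′ UTR densities of 0.0465 and 0.0370 in cdc33-ts4-2 cultures at 37°C, against 0.00210 and 0.00248 at 25°C, and 0.0160 and 0.0201 in CDC33 cultures at 37°C, against 0.00392 and 0.00187 at 25°C. The groups at 37°C did not overlap those at 25°C, nor each other. In cdc33-ts4-2 cells 4 of 7 members lay higher in both 37°C libraries, against 54.6% of all 1208 genes. In CDC33 cells 1 of 7 did, against 27.1%. No share over all genes was counted for the separation of the strains at 37°C. The log2 change of BAT1 was 2.07 (SE 0.15, limma adjusted p = 0.0013) in cdc33-ts4-2 cells and 1.12 (SE 0.15, adjusted p = 0.063) in CDC33 cells. With a pseudocount of 0.001 the change in cdc33-ts4-2 cells was 3.69, and with 0.1 it was 0.47. It was larger in cdc33-ts4-2 cells by 0.95 (SE 0.21, adjusted p = 0.043), by 1.36 with a pseudocount of 0.001 (adjusted p = 0.19) and by 0.27 with 0.1 (adjusted p = 0.033). The call was lost with the replicate number as a block (adjusted p = 0.081) and with that block within each strain (adjusted p = 0.16). The difference no longer passed when any 1 of 7 of the 8 libraries was left out, all but replicate 2 of cdc33-ts4-2 at 37°C, with estimates between 0.81 and 1.08.

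**Figure D4:**
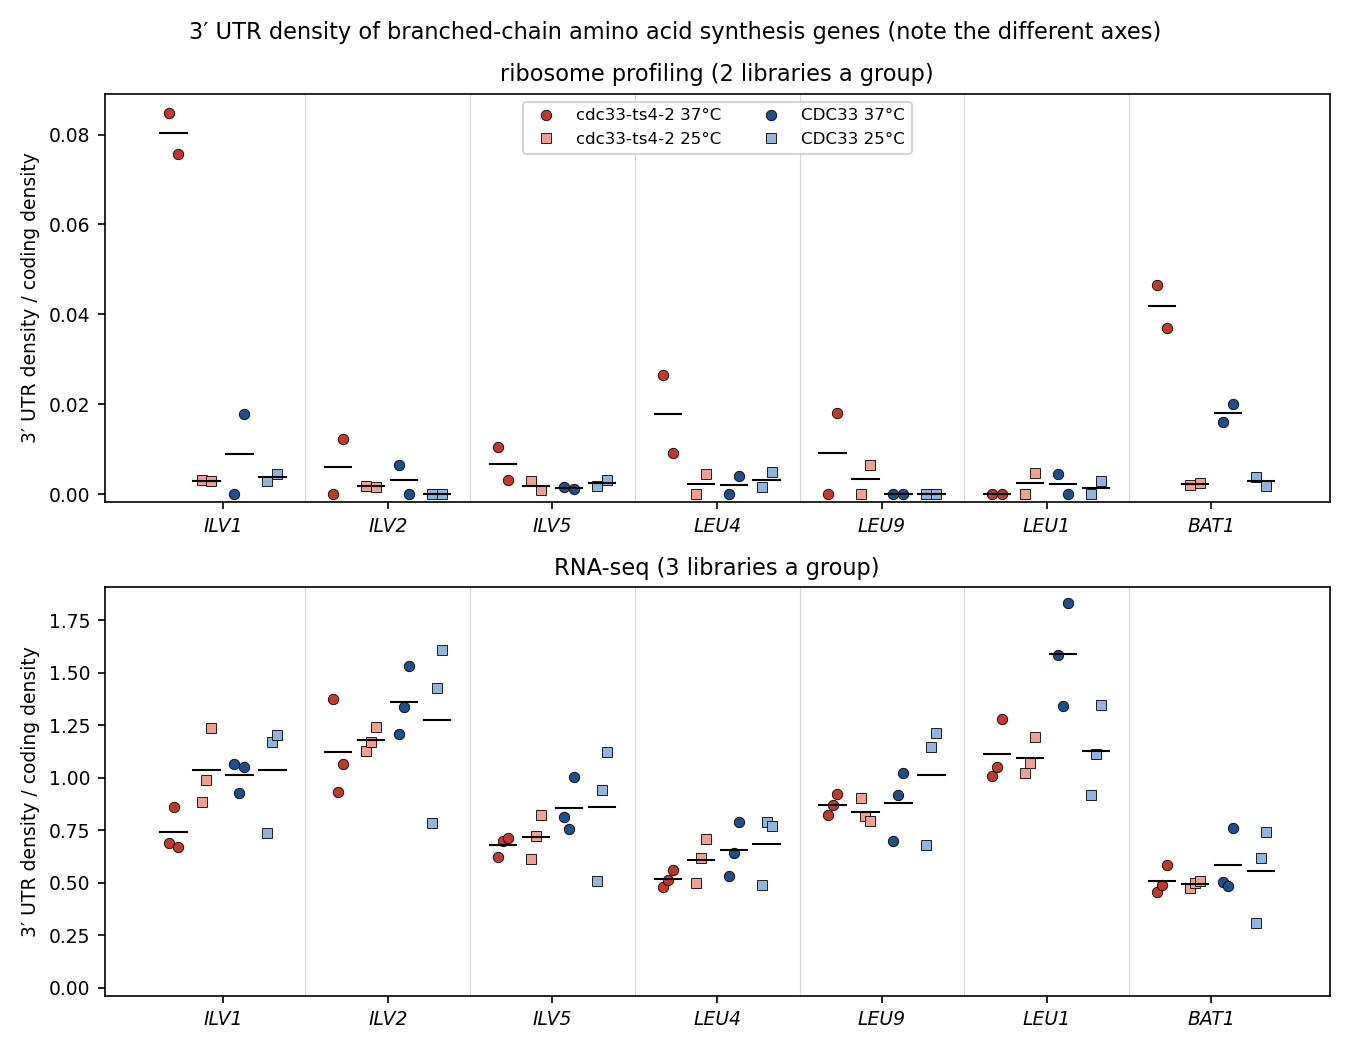
3′ UTR density divided by coding density in each library, with group means as bars, for 7 genes in ribosome profiling (top) and RNA-seq (bottom), on different linear axes. ILV1 reached 0.0849 and BAT1 0.0465 in cdc33-ts4-2 cultures at 37°C in ribosome profiling, while RNA-seq values lay between 0.308 and 1.83.

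The 2 calls of 7 in cdc33-ts4-2 cells stand beside 37.2% of all genes, and the median of the 7, 0.47, beside 0.91 over all genes. In CDC33 cells 0 of 7 were called, against 1.16%, with BAT1 alone at an unadjusted p under 0.05. The calls in cdc33-ts4-2 cells became 1 without either cdc33-ts4-2 library at 25°C and 4 without replicate 2 at 37°C, and those in CDC33 cells 1 without either cdc33-ts4-2 library at 37°C. The difference between strains was called, as a larger rise, in BAT1, 1 of 7, against 17.3% of all genes in that direction. That count became 0 without either library at 25°C of either strain or replicate 1 of cdc33-ts4-2 at 37°C, and 2 without replicate 2. LEU4 had 0.0264 and 0.00918 in cdc33-ts4-2 cultures at 37°C, against 0 and 0.00458 at 25°C, a change of 1.13 (limma adjusted p = 0.089). LEU1 was listed at 0 in both cdc33-ts4-2 libraries at 37°C, and LEU9 was listed at 0 in all 4 CDC33 libraries. The other 2, ILV2 and ILV5, stayed at or below 0.0123 in every ribosome profiling library.

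By RNA-seq none of the 7 was called in the 3′ UTR by limma: 0 of 7 passed in cdc33-ts4-2 cells (2.65% of all genes), 0 in CDC33 cells (0% of all genes) and 0 in the difference (0% of all genes). This does not show that the 7 were unchanged. At an unadjusted p under 0.05 there was 1 in cdc33-ts4-2 cells, ILV1 at -0.48 (adjusted p = 0.34), 1 in CDC33 cells, LEU1 at 0.50 (adjusted p = 1), and 0 in the difference. Replicate 1 of CDC33 at 25°C stood apart here: its median 3′ UTR density over all genes was 0.610, against 0.962 and 1.00 in the other 2 libraries of its group, and all 7 members were lowest in it within that group. Between assays, the 3′ UTR densities of all 7 were lower in ribosome profiling (99.7% of all genes called), by log2 differences from -6.74 for LEU1 to -4.61 for BAT1.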

How the data were processed

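Ribosome profiling (8 libraries) and RNA-seq (12 libraries) were analysed from processed values. As the study's methods describe, the authors trimmed reads, removed noncoding RNA, aligned uniquely mapping reads to R64-1-1 and counted them by strand, a read needing at least 50% of its length in the feature. Tools listed for the series in the submitters' processing notes include cutadapt 4.1, STAR 2.7.10b, HISAT2 2.2.1 and featureCounts 2.01. The deposited UTR densities are a ratio, UTR reads per base over coding reads per base. UTRs without a published boundary had a default length. The deposited mean normalized count is a signal that the authors made with Salmon 1.9.0 and DESeq2 1.32.0. The authors' fold changes, standard errors and p-values in the expression tables, their heat shock lists and their TE change were not used. The deposited feature table gave lengths and upstream reading frames.

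Values in a line are blank only at its right end, so a line with fewer than 20 values does not show which library lacks one, and such lines were left out. In each density table, 4 columns match no sample of the series and hold no value. Densities were fitted as log2(density + 0.01) with limma 3.58.1 (R 4.3.3), each assay on its own with 4 groups, and p-values were adjusted over all complete genes. The assay comparison used 20 libraries in 1 fit. The fitting steps were tested on simulated data. Alternatives were pseudocounts of 0.001 and 0.1, genes above 0 in every library, a replicate block, that block within each strain (added after the data had been seen), both assays in 1 fit and each library left out. A count test was not possible without counts. Members, the named genes (all measured members and the other pathway genes) and the comparison lists were chosen with earlier results of these data known. Sequences come from the RefSeq R64 genome. The window of 500 bases was set once the reference had been seen.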

Additional observations from a re-analysis of the deposited data

Results flagged for a closer look

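One result differed between the strains by a test of the difference itself: the change of BAT1 3′ UTR density by ribosome profiling was larger by 0.947 on the log2 scale in cdc33-ts4-2 cells than in CDC33 cells (SE 0.21, limma adjusted p = 0.043). The changes were 2.07 in cdc33-ts4-2 cells and 1.12 in CDC33 cells, and both libraries of each strain lay higher at 37°C than at 25°C. Such a separation by temperature was present in 54.6% of all genes in cdc33-ts4-2 cells and 27.1% in CDC33 cells. BAT1 densities by RNA-seq in the same region changed by 0.03 in cdc33-ts4-2 cells and 0.13 in CDC33 cells. Over all genes the median difference between strains was 0.74, and BAT1 stood at the 55.8th percentile. A larger rise was called in 17.3% of all genes, beside 1 of the 7 members. The call was lost with a replicate block (adjusted p = 0.081) and with that block within each strain (adjusted p = 0.16). Its adjusted p ranged from 0.018 to 0.19 over the alternatives tried.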

How the results depend on the processing

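Of 283 values of single genes under alternative settings, 200 kept their direction and their side of the threshold, 73 lost the call, 10 gained it and 0 changed sign. The values followed were mostly those of members called in the main fit. The blocks, the limit to genes above 0 and both assays in 1 fit cannot move an estimate. Nor can leaving out a library outside the contrast, so no sign could change in these settings. The number of members called in the 5′ UTR by ribosome profiling in CDC33 cells, 5 of 7, was 3 with a pseudocount of 0.1. In cdc33-ts4-2 cells it was 7 with that pseudocount, with genes above 0 only and with both assays in 1 fit. Beside it, 340 of 1218, 363 of 911 and 478 of 1218 genes were called in these settings, in that order. In the 3′ UTR by ribosome profiling, the 2 calls in cdc33-ts4-2 cells became 1 with a pseudocount of 0.001 and 1 of the 2 members above 0 in every library. In CDC33 cells 0 became 1 with that pseudocount and 1 of 2 with genes above 0. The 1 call in the difference became 0 with a pseudocount of 0.001 (BAT1, 1.36, limma adjusted p = 0.19) and 2 with 0.1. The assay comparison in the 3′ UTR kept 2 of 2 with genes above 0. The cause was not tested, except that fewer members enter when genes must be above 0.

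With 1 library left out, which leaves its group a single library assumed to vary like the others, member calls ranged over 0 to 5 (5′ UTR, ribosome profiling, cdc33-ts4-2), 0 to 4 (same, CDC33), 1 to 4 (3′ UTR, cdc33-ts4-2), 0 to 1 (3′ UTR, CDC33), 0 to 2 (3′ UTR, difference) and 0 to 1 (5′ UTR, RNA-seq, CDC33), and did not vary in the others.

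Whether replicate numbers pair the libraries is not given. Correlations of same-numbered deviations ran from -0.214 to 0.327. Across temperatures of the CDC33 strain all 3 were above 0.1 in the 3′ UTR by RNA-seq (0.183, 0.204 and 0.199), and in ribosome profiling those within a strain ran from -0.062 to 0.051. With the replicate block the calls were 5 in cdc33-ts4-2 cells and 4 in CDC33 cells for the 5′ UTR by ribosome profiling, ILV5 in CDC33 cells having an adjusted p of 0.051, and 0 for the difference in the 3′ UTR (BAT1 adjusted p = 0.081). With the block within each strain, calls by ribosome profiling became 0 in the 5′ UTR of cdc33-ts4-2 cells, 0 in that of CDC33 cells and 0 for the 3′ UTR difference (BAT1 adjusted p = 0.16), with fewer degrees of freedom left. Counts over all genes became 0, 0 and 0 in the 5′ UTR (cdc33-ts4-2, CDC33 and difference), 0 in the 3′ UTR of CDC33 cells and 29 for the difference there, and 53 in cdc33-ts4-2 cells by RNA-seq. The 2 calls in the 3′ UTR of cdc33-ts4-2 cells and that of BAT1 by RNA-seq passed in this fit too. The block changed no other call.

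Counts over all genes moved more than 1.5 times. In the 5′ UTR by ribosome profiling, 226 calls in cdc33-ts4-2 cells became 340 (pseudocount 0.1), 363 (genes above 0) and 478 (both assays), 188 in CDC33 cells became 323 (genes above 0), 120 (block) and 407 (both assays), and 2 in the difference became 4 (pseudocount 0.001), 0 (pseudocount 0.1 and genes above 0) and 39 (both assays). The RNA-seq difference there, 13, became 8 (block) and 7 (both assays). In the 3′ UTR by ribosome profiling, 449 in cdc33-ts4-2 cells became 172 (genes above 0), 14 in CDC33 cells became 40 and 9 (pseudocounts 0.001 and 0.1), 3 (genes above 0 and block) and 28 (both assays), and 218 in the difference became 82 (pseudocount 0.001), 107 (genes above 0), 133 (block) and 377 (both assays). By RNA-seq 32 became 7 (both assays), and the assay comparison, 1204, became 256 (genes above 0).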
